A study of Homo sapiens with 6 samples.

Results

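The genes of the proteasome were taken as the rows of the deposited count table named PSMA to PSMG followed by a number, leaving out the immunoproteasome genes PSMB8, PSMB9 and PSMB10. The rule found 45 of 60675 genes. These are 16 core genes (PSMA and PSMB), 20 genes of the 19S regulatory particle (PSMC and PSMD) and 9 genes of activators, an inhibitor and assembly chaperones (PSME, PSMF and PSMG). The choice used no measured value. PSMA8 and PSMB11, known from testis and thymus proteasomes, had 0 counts in all 6 libraries, where a count of 0 allows up to 0.104 to 0.133 CPM (counts scaled to library size), and the other 43 genes entered the tests.

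The proteasome degrades proteins tagged with ubiquitin. Its core is a stack of rings in which the outer alpha rings gate a chamber and the inner beta rings hold the protease sites, and the 19S particle binds, unfolds and feeds in the tagged protein. Other caps, the PA28 and PA200 activators, open the gate in place of the 19S particle. When proteasome activity drops, human cells raise subunit genes through the transcription factor NRF1, made from the gene NFE2L1, which binds antioxidant response elements in their promoters.

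Total RNA of HCT116 cells, an established human colorectal carcinoma line, was sequenced in 3 groups of 2 libraries. The SP2509 cells, labelled wild type, were given 3 uM of SP2509, a compound known for blocking LSD1, a histone demethylase, for 48 h. The siPIR cells are labelled as a knockdown of PIRIN, the gene PIR, which encodes a nuclear iron-binding protein, with a time of 48 h. Their treatment label also names SP2509, so compound and knockdown cannot be told apart in that group. The untreated cells are labelled wild type, and although the shared treatment text names a DMSO arm, no label says whether these cells received it. No library with a non-targeting siRNA was analysed here, and nothing in the labels says that the 2 libraries of a group came from separate cultures, so p-values measure only the spread between these libraries.

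Libraries held 22622441 to 28816590 counts, and the proteasome genes took 0.402% and 0.375% of them in SP2509 libraries, 0.293% and 0.303% in siPIR ones, and 0.473% and 0.485% in untreated libraries. Replicates correlated at 0.991 to 0.996 over log2 CPM. PIR had 37 and 39 counts in siPIR libraries, against 519 and 462 in untreated libraries, or -2.87 on the log2 scale (SE 0.175, edgeR quasi-likelihood adjusted p = 3.39e-09), and SP2509 libraries had 377 and 305 PIR counts. The mean GC content of counted transcripts was 42.3% and 42.8% in siPIR libraries, against 48.3% to 48.7% in SP2509 and untreated libraries. The 6 epithelial markers, 5 of them tested, summed to 4626 and 4679 CPM in SP2509 libraries, 1317 and 1325 in siPIR ones, and 3628 and 3559 in untreated libraries, while VIL1, a marker of gut epithelium, was near 0. Among them the markers went both ways: KRT8, KRT18 and KRT19 were lower in siPIR libraries than in untreated ones (232 and 274 CPM against 1856 and 1848 for KRT8), and EPCAM and CDH1 were higher (758 and 667 against 203 and 221 for EPCAM). The 5 leukocyte markers summed to at most 1.18 CPM in any library, with PTPRC and CD3E at 0, and the 4 endothelial markers to at most 1.83, with CDH5 at 0. The 6 fibroblast markers summed to 22.1 and 20.8 in SP2509 libraries, 1.78 and 2.13 in siPIR ones, and 22.7 and 25.7 in untreated libraries. In SP2509 and untreated libraries nearly all of it was COL1A1. In siPIR libraries COL1A1 had 1.15 and 1.56 CPM and COL3A1 0.470 and 0.469. COL1A2 was at 0, and the 4 markers besides COL1A1 and COL1A2 had 0.538 CPM or less in any library. In bulk RNA, fewer cells of a type and less RNA per cell cannot be told apart. The part of these shifts in the results below was not tested.

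Promoter windows of the 4 genes with the largest differences between SP2509 and untreated cells are shown, since 2 of these genes rose and 2 fell. Each runs from 250 bases before to 50 bases after the gene's start, 5′ to 3′ on the gene's strand, from RefSeq on GRCh38.p14. The windows are chr2:53970944-53971243 (minus strand) for PSME4, chr20:1113013-1113312 (plus strand) for the first of PSMF1's starts, chr14:24135944-24136243 (plus strand) for PSME1 and chr17:42833147-42833446 (plus strand) for PSME3. Capitals mark matches, on either strand, to the 4 motifs searched: TGACNNNGC, the core of the antioxidant response element, CCAAT, bound by NF-Y, TGATGNAA, the element of C/EBP and ATF factors, and GGAAGTG, bound by ETS factors.
PSME4: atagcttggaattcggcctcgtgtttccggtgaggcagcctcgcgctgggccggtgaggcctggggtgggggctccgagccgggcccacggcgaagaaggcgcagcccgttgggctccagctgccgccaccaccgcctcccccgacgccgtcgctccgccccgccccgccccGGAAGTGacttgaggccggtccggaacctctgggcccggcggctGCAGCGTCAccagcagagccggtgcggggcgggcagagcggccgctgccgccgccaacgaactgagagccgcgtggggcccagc
PSMF1: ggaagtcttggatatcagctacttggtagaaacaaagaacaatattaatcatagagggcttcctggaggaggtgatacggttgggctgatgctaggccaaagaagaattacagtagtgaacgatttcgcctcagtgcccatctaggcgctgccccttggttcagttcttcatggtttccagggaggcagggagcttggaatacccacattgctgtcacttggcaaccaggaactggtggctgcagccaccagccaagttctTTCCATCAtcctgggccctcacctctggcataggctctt
PSME1: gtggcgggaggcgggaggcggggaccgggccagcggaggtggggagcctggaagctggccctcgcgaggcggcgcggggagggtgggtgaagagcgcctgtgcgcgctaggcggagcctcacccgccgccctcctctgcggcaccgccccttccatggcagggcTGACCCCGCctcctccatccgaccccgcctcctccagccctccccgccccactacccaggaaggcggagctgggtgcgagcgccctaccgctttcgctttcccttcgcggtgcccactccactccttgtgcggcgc
PSME3: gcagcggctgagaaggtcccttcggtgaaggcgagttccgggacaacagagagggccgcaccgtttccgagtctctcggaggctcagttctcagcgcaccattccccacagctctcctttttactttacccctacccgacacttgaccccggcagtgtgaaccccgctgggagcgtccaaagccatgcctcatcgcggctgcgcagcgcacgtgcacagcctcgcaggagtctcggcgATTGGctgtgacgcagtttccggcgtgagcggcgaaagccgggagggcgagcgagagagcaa

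The window of PSME4 holds an antioxidant response core on the strand opposite the gene, beginning 34 bases before the start, and an ETS motif 78 bases before it. PSME1 holds an antioxidant response core 86 bases before its start, and PSME3 a CCAAT box on the opposite strand 12 bases before its start. PSMF1 holds a match to the C/EBP and ATF element on the opposite strand, 12 bases into the gene from its first start. The window at PSMF1's other listed start (chr20:1118352-1118651) held no match to any of the 4 motifs. Which start these cells use was not tested. A window was listed for 39 of the 45 genes, and 14 of these (35.9%) held the antioxidant response core, against 16.1% of 27305 genes with a window. CCAAT stood in 19 (48.7%, against 39.7% of all genes), GGAAGTG in 9 (23.1%, against 13.4%) and TGATGNAA in 1 (2.56%, against 4.46%). No 2 matches in the 4 printed windows overlap, and a match describes letters, not a bound site. Both genes that rose and genes that fell held the antioxidant response core: PSME4, PSMC4, PSMD9 and PSMG2 are among its 14 holders and rose in SP2509 cells, though PSMC4, PSMD9 and PSMG2 turn below 0 when scaled to total counts alone, and PSMA4, PSMB3, PSMD1, PSMD5, PSMD12, PSME1 and PSME2 are among them and fell.

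In untreated cells the core genes summed to 540 ± 8.21 CPM per kilobase of exon (SD, n = 2), the 19S genes to 469 ± 4.80 and the activator and chaperone genes to 135 ± 0.215. Single genes ranged widely on this scale. PSMA7, an alpha subunit, stood first at 80.9 ± 0.979, followed by the beta subunits PSMB3 at 76.6 ± 2.68 and PSMB4 at 67.7 ± 1.51 (SD, n = 2). At the other end, PSMA1, PSMA6, PSMA2 and PSMD9 had 5.21, 1.06, 0.828 and 0.553 CPM per kilobase. These 4 genes share 24.7%, 14.1%, 14.6% and 19.9% of their exon bases with other annotated genes on the same strand, and how such reads were counted is unknown, so their levels are uncertain. PSMG4, a core assembly chaperone with no such overlap, stood at 0.902 ± 0.0592, though opposite-strand exons cover 15.0% of its exon bases. Its annotated exons together span 10418 bases, against 838 in its longest transcript annotated as principal. Dividing by all exon bases can thus lower its level. The same holds for PSMA6 (6506 against 1029 bases), PSMA2 (5336 against 1487) and PSMD9 (8774 against 2784). Genes at higher levels had such gaps too, among them PSMD6 (9123 against 1430), PSMD14 (7698 against 1954) and PSME3 (5152 against 998). The sums above therefore depend on the length used, and sums with the longest transcript are given below. Opposite-strand exons cover 75.8% of the exon bases of PSMC1 and 30.7% of those of PSMD7, and the labels do not state the strand setting of the counting.

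The comparison of SP2509 with untreated cells asks what the compound does to proteasome RNA. PSME4, which encodes the PA200 activator, more than doubled, and PSMF1, which encodes PI31, first described as a proteasome inhibitor, rose. PSME1, PSME2 and PSME3, the subunits of the PA28 activators, all fell. Of the 43 genes tested, 16 rose and 13 fell at an adjusted p under 0.05, and 14 did not pass. Over all 16503 genes tested, 33.5% rose and 35.1% fell, so these counts stand near the background. Changes were small in size: 1 of the 43 (2.33%), PSME4, passed with a change of over 2-fold, against 30.8% of all genes, and 6 (14.0%) with a change of over 1.5-fold, against 51.1%.

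PSME4 had 239 and 233 CPM in SP2509 libraries, against 93.1 and 92.9 in untreated libraries. The groups stood far apart, and the log2 fold change was 1.34 (SE 0.0971, edgeR adjusted p = 1.33e-07). PSMF1 had 115 and 113 in SP2509 libraries, against 69.6 and 64.3 in untreated libraries (log2 fold change 0.77, SE 0.0940, edgeR adjusted p = 1.16e-05). Both stayed past the threshold under all 4 scalings tried and without any one library.

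PSME1, a subunit of the PA28 ring that interferon raises, had 43.2 and 43.8 CPM in SP2509 libraries, against 79.0 and 79.6 in untreated libraries (log2 fold change -0.87, SE 0.119, edgeR adjusted p = 3.08e-05). PSME3, the nuclear PA28 gamma, had 72.8 and 73.9 in SP2509 libraries, against 127 and 122 in untreated libraries (log2 fold change -0.76, SE 0.0933, edgeR adjusted p = 1.22e-05). PSME2, the partner of PSME1 in its ring, had 31.2 and 28.2 in SP2509 libraries, against 39.6 and 43.6 in untreated libraries (log2 fold change -0.49, edgeR adjusted p = 0.00231). In each of the 3 genes both SP2509 libraries lay below both untreated libraries. With 2 libraries a group, such separation says little here and below, since genes that did not pass also had it. Examples are PSMC5 (109 and 104 CPM in SP2509 libraries, 97.6 and 103 in untreated ones) and PSMD13 (130 and 123, against 117 and 117). Its share over all genes was not counted. Without the second SP2509 library, PSME2 had an adjusted p of 0.0528.

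**Figure D1:**
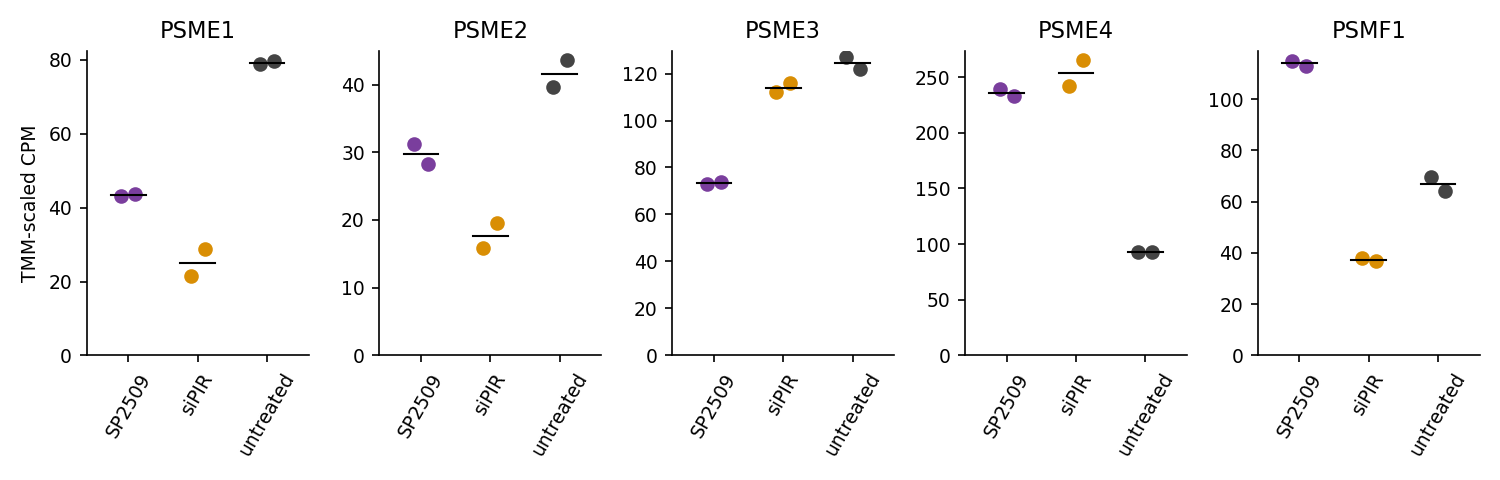
TMM-scaled CPM (vertical axes, from 0) of the 4 activator genes and PSMF1 in SP2509, siPIR and untreated libraries; points are libraries and lines are means of 2. PSME4 stood at 239 and 233 in SP2509 libraries, against 93.1 and 92.9 in untreated libraries, and PSME1 at 43.2 and 43.8, against 79.0 and 79.6.

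Of the 20 genes of the 19S particle, 11 rose, 4 fell and 5 did not pass, against 33.5% and 35.1% of all genes that rose and fell, with a median log2 fold change of 0.34, which became 0.11 under upper-quartile scaling and -0.05 under scaling to total counts alone, where 7 fell and 13 did not pass. All genes shifted too: the median over all genes was -0.04, and it became -0.27 and -0.43 under those scalings. Relative to the median of all genes, the 19S median stood 0.38 higher, the core median 0.07 higher, and the median of activators and chaperones 0.05 lower (-0.05). A scaling of libraries moves all genes by nearly the same amount. These differences are therefore the same under each of the 4 scalings by construction, which is no check on them. Under upper-quartile scaling 4 of the 43 genes (PSME4, PSMF1, PSMD7 and PSMD8) rose and 15 fell, against 25.5% and 44.8% of all genes, and under total counts alone 2 rose and 20 fell, against 20.4% and 51.7% of all genes.

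Among the 6 ATPases that unfold substrates, 4 rose and 2 did not pass, against 33.5% of all genes that rose and 35.1% that fell. PSMC6 had 74.1 and 65.5 CPM in SP2509 libraries, against 49.4 and 52.0 in untreated libraries (log2 fold change 0.46, SE 0.109, edgeR adjusted p = 0.00214). PSMC1 had 160 and 146 in SP2509 libraries, against 111 and 119 in untreated libraries (log2 fold change 0.41, SE 0.0972, edgeR adjusted p = 0.00226). In both genes the SP2509 libraries lay above the untreated ones, as they did in PSMC5, which did not pass. PSMC4 and PSMC2 rose by log2 fold changes of 0.38 and 0.30, which turned to -0.01 and -0.09 under total counts alone, and PSMC2 did not pass without the first SP2509 library (adjusted p = 0.118), the first untreated library (0.143) or the second untreated library (0.0589). PSMC3 and PSMC5 had -0.07 and 0.09 and did not pass.

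PSMD1 and PSMD2, the large scaffold proteins of the 19S base, fell, while PSMD4, a ubiquitin receptor next to them, rose (log2 fold change 0.39, edgeR adjusted p = 0.00352). PSMD1 had 131 and 110 CPM in SP2509 libraries, against 158 and 159 in untreated libraries (log2 fold change -0.39, SE 0.105, edgeR adjusted p = 0.00503), and did not pass without the second SP2509 library (adjusted p = 0.134). PSMD2, with the highest CPM of these genes in untreated cells, had 293 and 278 in SP2509 libraries, against 361 and 358 in untreated libraries (log2 fold change -0.33, SE 0.126, edgeR adjusted p = 0.0316). Leaving out any one of those 4 libraries raised the adjusted p of PSMD2 to between 0.108 and 0.196, and PSMD2 then did not pass.

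Of the 8 genes of the 19S lid, which removes ubiquitin chains, 4 rose, 1 fell and 3 did not pass. The shares over all genes were 33.5% that rose and 35.1% that fell. PSMD8, a lid subunit, had 112 and 115 CPM in SP2509 libraries, against 79.2 and 73.6 in untreated libraries (log2 fold change 0.57, SE 0.125, edgeR adjusted p = 0.00128). PSMD7, the partner of the deubiquitinase, had 119 and 115 in SP2509 libraries, against 77.3 and 84.7 in untreated libraries (log2 fold change 0.53, SE 0.0969, edgeR adjusted p = 0.000313). SP2509 libraries lay above untreated ones in both, as they did in PSMD3, PSMD11 and PSMD13, which did not pass. The overlapping opposite-strand locus of PSMD7 had 58 and 77 counts in SP2509 libraries, against 123 and 105 in untreated libraries. PSMD14, the deubiquitinase itself, rose by 0.44, and PSMD6 by 0.38, which became 0.00 under total counts alone. PSMD12, a lid subunit, fell to 110 and 103 in SP2509 libraries, against 132 and 133 in untreated libraries (log2 fold change -0.32, SE 0.118, edgeR adjusted p = 0.0293), and did not pass without any one of these 4 libraries (adjusted p 0.0871 to 0.218). PSMD3, PSMD11 and PSMD13 had 0.26, 0.22 and 0.11 and did not pass.

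Of the 3 chaperones that assemble the 19S base, PSMD10, also known as gankyrin, rose by a log2 fold change of 0.44 (edgeR adjusted p = 0.00123). PSMD9 had 0.38 with an adjusted p of 0.0349, which turned to -0.01 under total counts alone and did not pass without any one of the 4 libraries compared (0.0793 to 0.193). PSMD5 had 41.2 and 42.6 CPM in SP2509 libraries, against 50.7 and 47.7 in untreated libraries (log2 fold change -0.23, SE 0.0949, edgeR adjusted p = 0.0458), and it too did not pass without any one of the 4 libraries compared (0.108 to 0.310).

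In the core, 2 of the 14 genes tested rose, 5 fell and 7 did not pass, with a median log2 fold change of 0.03. Over all genes, 33.5% rose and 35.1% fell. PSMA3, an alpha subunit, had 1272 and 1225 counts in SP2509 libraries, against 2668 and 2472 in untreated libraries, or means of 48.7 and 76.0 CPM, a difference of -0.64 on the log2 scale (SE 0.118, edgeR adjusted p = 0.000368). PSMA4, another alpha subunit, had 122 and 114 CPM in SP2509 libraries, against 162 and 180 in untreated libraries (log2 fold change -0.53, SE 0.10, edgeR adjusted p = 0.000434). The groups did not overlap in either gene, but neither did they in PSMA1 and PSMA7, which did not pass. The calls of PSMA3 and PSMA4 held without any one library and under all 4 scalings. PSMA6, an alpha subunit with shared exons, had 9.98 and 8.81 in SP2509 libraries, against 6.69 and 7.12 in untreated libraries (log2 fold change 0.44, SE 0.127, edgeR adjusted p = 0.00754), and did not pass without the first SP2509 library (0.0734) or the first untreated library (0.0742). PSMA2, the other alpha subunit that fell, had a log2 fold change of -0.72 on 80 and 58 counts in SP2509 libraries, against 172 and 129 in untreated libraries (edgeR adjusted p = 0.0147), and did not pass without the second SP2509 library (0.166) or the first untreated library (0.106). PSMA1, PSMA5 and PSMA7 had 0.25, 0.04 and 0.18 and did not pass.

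The beta subunits with protease sites are PSMB5, PSMB6 and PSMB7. PSMB5, the chymotrypsin-like site that proteasome inhibitor drugs bind, had 105 and 107 CPM in SP2509 libraries, against 85.9 and 84.8 in untreated libraries (log2 fold change 0.31, SE 0.0977, edgeR adjusted p = 0.0121). The groups did not overlap, but the value turned to -0.08 under total counts alone and did not pass without any one of the 4 libraries compared (adjusted p 0.0529 to 0.102). PSMB6, the caspase-like site, had 87.0 and 81.0 in SP2509 libraries, against 75.3 and 74.4 in untreated libraries (log2 fold change 0.17, edgeR adjusted p = 0.204). PSMB7, the trypsin-like site, had 119 and 121, against 103 and 108 in untreated libraries (0.19, adjusted p = 0.111). PSMB3 had 73.7 and 70.0 in SP2509 libraries, against 88.1 and 92.6 in untreated libraries (log2 fold change -0.33, SE 0.119, edgeR adjusted p = 0.0257), and PSMB2, also without a protease site, had 82.1 and 84.4, against 105 and 98.2 (-0.29, SE 0.0930, adjusted p = 0.0154). Neither passed without any one of these 4 libraries (0.0938 to 0.183 for PSMB3, 0.0541 to 0.177 for PSMB2). PSMB1 and PSMB4 had 0.03 and -0.03 and did not pass.

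The chaperones that assemble the core did not move together. PSMG2 had 37.7 and 37.5 CPM in SP2509 libraries, against 29.9 and 30.1 in untreated libraries (log2 fold change 0.32, SE 0.0952, edgeR adjusted p = 0.00875), a value of -0.07 under total counts alone, and did not pass without the first SP2509 library (0.0556), the first untreated library (0.0738) or the second untreated library (0.0767). PSMG4 fell by 0.48 on the log2 scale (edgeR adjusted p = 0.00665) and did not pass without the first SP2509 library (0.0748) or the second untreated library (0.0762). PSMG1 and PSMG3 had -0.09 and 0.15 and did not pass. Leaving out any one of the 4 libraries compared lowered both the number of genes that rose and the number that fell. Without either siPIR library, which share the estimate of spread, more rose and as many fell. Such fits have 1 library in a group. The shares of all genes that rose and fell in them were not counted, so a loss over all genes cannot be told apart.

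**Figure D2:**
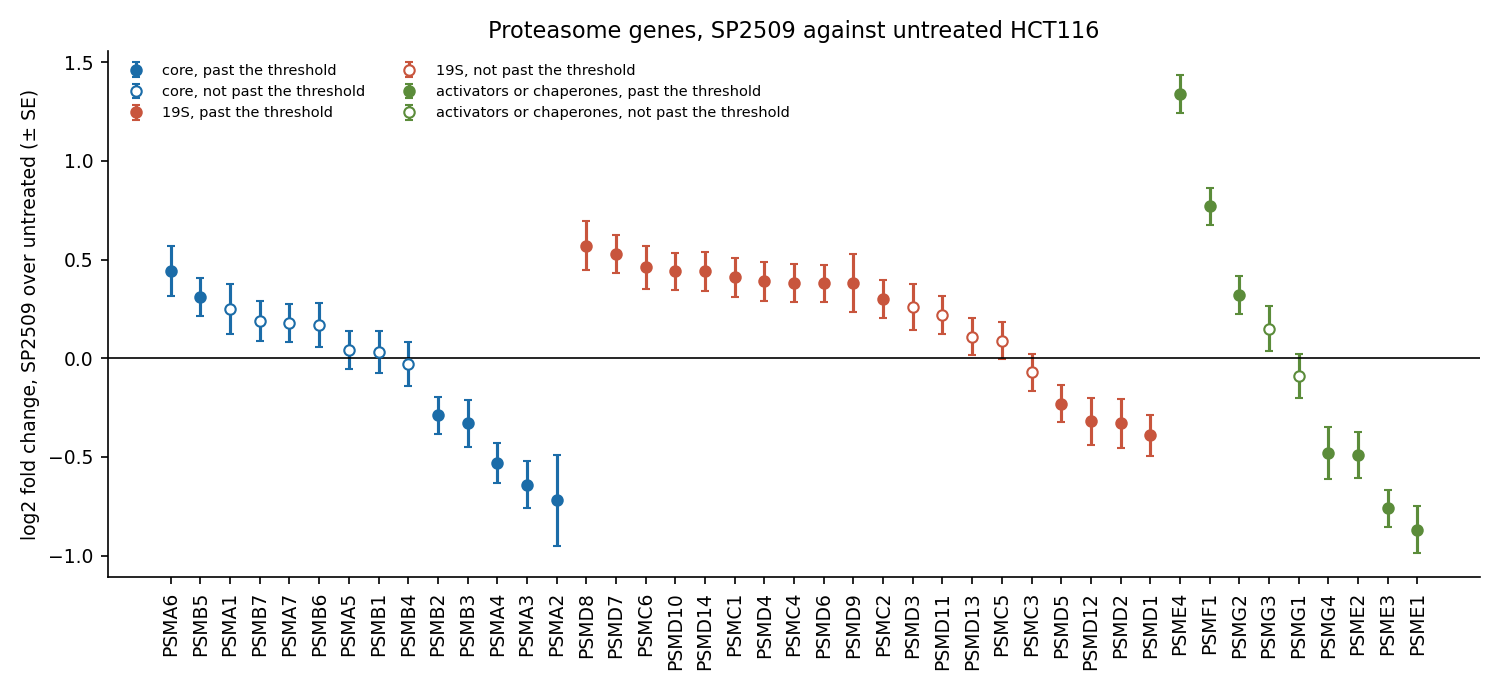
Log2 fold change of SP2509 over untreated cells for the 43 genes tested, ordered within core, 19S, and activator or chaperone genes; bars are SE, filled points passed an adjusted p of 0.05 and open points did not. PSME4 stands highest at 1.34 and PSME1 lowest at -0.87; under scaling to total counts alone 17 of the 43 changed sign, among them PSMB5, PSMC2, PSMC4, PSMD6, PSMD9 and PSMG2, which passed the threshold here.

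Summed per kilobase, core genes had 543 ± 13.2 under SP2509, 335 ± 2.96 under siPIR and 540 ± 8.21 without treatment (SD, n = 2 each). The 19S genes had 524 ± 20.7, 397 ± 13.0 and 469 ± 4.80 in SP2509, siPIR and untreated libraries. Scaled to total counts alone, the 19S sum in SP2509 libraries lay below that in untreated libraries (505 against 592). The ratio of the core sum to the 19S sum, which no scaling of libraries can move, was 1.02 and 1.05 in SP2509 libraries, 0.818 and 0.867 in siPIR ones, and 1.15 and 1.15 in untreated libraries. Both SP2509 libraries and both siPIR libraries lay below the untreated ones, also with the longest transcript as the length (0.923 and 0.942 in SP2509, 0.865 and 0.875 in siPIR, 1.05 and 1.06 in untreated libraries). With 2 libraries against 2, an exact two-sided permutation test cannot give a p below 0.333. Unlike a scaling, a trend with GC content can move this ratio, and siPIR values followed GC content (below). No offset for GC content was applied to these sums, and the part of that trend in them was not tested.

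**Figure D3:**
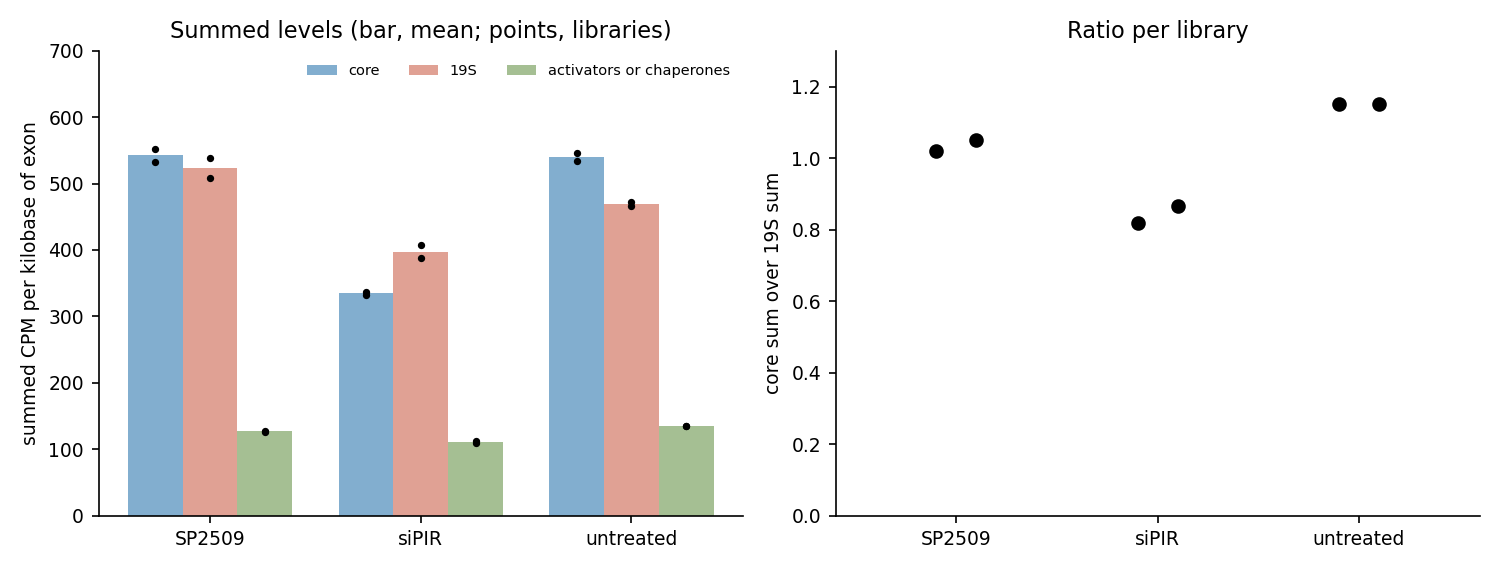
Left, summed CPM per kilobase of exon of core, 19S, and activator or chaperone genes by group (bars, means of 2; points, libraries); right, the core sum divided by the 19S sum in each library. The ratio was 1.02 and 1.05 in SP2509 libraries, 0.818 and 0.867 in siPIR ones, and 1.15 in both untreated libraries. No offset for GC content was applied.

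Genes around the proteasome were followed as lists. Of 13 genes of the NRF1 pathway, 11 rose in SP2509 cells, 1 fell and 1 did not pass, against 33.5% and 35.1% of all genes that rose and fell. Their median log2 fold change was 0.80, against -0.04 over all genes. Under total counts alone 8 rose and 2 fell, against 20.4% and 51.7% of all genes, with a median of 0.41 against -0.43. The list mixes genes that act on NRF1 in opposite directions with NRF2 and its repressor, so its count gives no direction of the pathway. NFE2L1 itself had 295 and 311 CPM in SP2509 libraries, against 197 and 188 in untreated libraries (0.65, edgeR adjusted p = 7.02e-05). MAFF, a small partner protein of NRF1 on DNA, had 112 and 105 in SP2509 libraries, against 13.3 and 11.7 in untreated libraries (3.11). Its relatives MAFG and MAFK rose by 0.80 and 1.36, SEL1L and SYVN1, which bring NRF1 out of the endoplasmic reticulum for degradation, by 1.55 and 0.99, and the ubiquitin ligase genes FBXW7 and BTRC by 1.49 and 0.47. NFE2L2 and KEAP1, the related factor NRF2 and its repressor, rose by 1.25 and 0.66, and NGLY1, which removes sugars from NRF1, by 0.45, although NGLY1 did not pass without the second untreated library (adjusted p = 0.0503). VCP, which extracts NRF1 from the membrane, fell to 140 and 141 in SP2509 libraries, against 238 and 232 in untreated libraries (-0.74), and DDI2, the protease that cuts it, had -0.04 and did not pass.

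Of 8 maturation and associated factors, 4 rose, 2 fell and 2 did not pass, against 33.5% and 35.1% of all genes that rose and fell. Under upper-quartile scaling and under total counts alone 2 rose and 4 fell. The shares of all genes were then 25.5% and 44.8%, and 20.4% and 51.7%. ADRM1, a ubiquitin receptor of the 19S particle, had 195 and 197 CPM in SP2509 libraries, against 100 and 91.8 in untreated libraries (log2 fold change 1.03), and ECPAS, which binds and remodels proteasomes, had 258 and 255, against 84.5 and 82.8 (1.61). SEM1, a small lid subunit, and the ligase gene UBE3C rose by 0.32 and 0.28, which turned to -0.07 and -0.11 under total counts alone, and UCHL5 and PAAF1 fell by 0.34 and 0.39 on the log2 scale. Each of these last 4 lost its call without some library (adjusted p 0.234 and 0.282 for SEM1, 0.0737 to 0.181 for UBE3C, 0.103 to 0.139 for UCHL5, 0.111 to 0.339 for PAAF1). Those libraries were the first SP2509 and first untreated ones for SEM1, these and the second untreated one for UBE3C, the 2 SP2509 and the first untreated ones for PAAF1, and any of the 4 for UCHL5. POMP, which matures the core, and USP14 had -0.07 and -0.16 and did not pass.

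Genes that supply ubiquitin moved both ways. UBB, a polyubiquitin gene, had 632 and 623 CPM in SP2509 libraries, against 863 and 902 in untreated libraries (log2 fold change -0.49, edgeR adjusted p = 0.00114). RPS27A, a fusion of ubiquitin with a ribosomal protein, rose by 0.72. UBA1, the main activating enzyme, fell by 0.35 on the log2 scale but did not pass without any one of the 4 libraries compared (adjusted p 0.0503 to 0.138), and UBA6, the other activating enzyme, had 0.23 and did not pass. Of the shuttle genes, which carry tagged proteins to the proteasome, ZFAND2A rose by 2.59, RAD23B by 0.72, UBQLN1 by 0.69 and ZFAND5 by 0.62, and UBQLN2 and UBQLN4 had 0.19 and 0.15 and did not pass.

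The interferon-induced beta subunits were at low levels. PSMB9 had 30 and 42 counts in SP2509 libraries, against 210 and 189 in untreated libraries (log2 fold change -2.06, edgeR adjusted p = 4.59e-06). PSMB8 had 3 and 7 counts, against 17 and 17 (-1.34, adjusted p = 0.0273), and PSMB10 had 40 and 21, against 13 and 15 (1.51, adjusted p = 0.00595). PSMB8 did not pass without the first SP2509 library (0.247) or either untreated library (0.0938 and 0.143), nor PSMB10 without the first SP2509 library (0.133) or the first untreated library (0.0642).

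The siPIR cells were next set against untreated cells, a contrast that cannot be read as the knockdown alone, since the labels also name the compound and no library with a non-targeting siRNA was analysed here. As fitted, 14 of the 43 genes rose and 23 fell, with 6 not past the threshold, while 39.3% of all genes rose and 46.9% fell. The median log2 fold change was -0.47, against -0.28 over all genes, and the range ran from -3.26 (PSMG3) to 2.16 (PSMA1). The values followed GC content: across genes, which are not independent replicates and share the same libraries, Spearman's rho between the GC of the longest transcript and the log2 fold change was -0.82 over the 43 genes and -0.88 over 16345 genes. The same values between SP2509 and untreated cells were -0.06 and -0.09.

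Within bins of GC content, the proteasome genes and all genes can be set side by side, with no test of the difference. At 35 to 40% GC, the 7 proteasome genes had a median log2 fold change of 0.87, against 1.86 over 2217 genes. At 50 to 55% GC, the 12 proteasome genes had -1.79, against -1.18 over 2590 genes. Between those bins the medians were 1.06 against 1.08 (8 genes at 40 to 45%) and -0.47 against 0.06 (11 genes at 45 to 50%), and at 55 to 60% the 4 genes had -2.56 against -2.61.

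**Figure D4:**
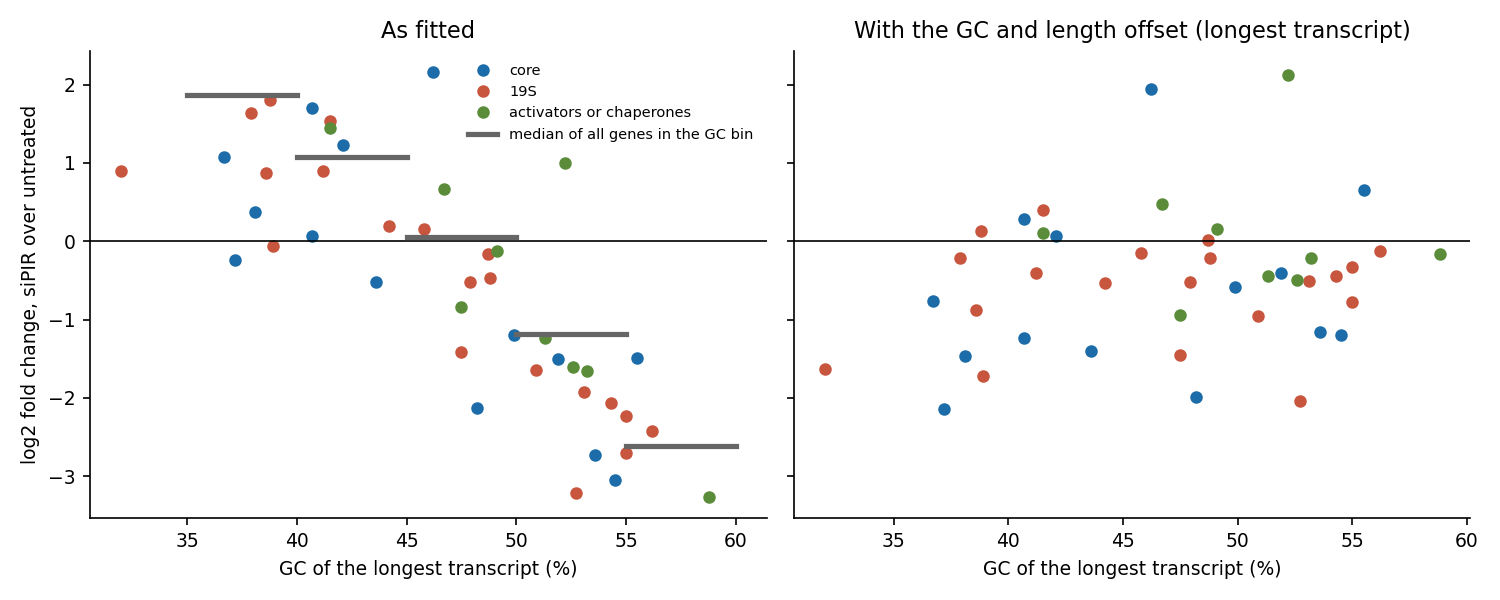
Log2 fold change of siPIR over untreated cells against the GC of the longest transcript, for the 43 genes as fitted (left, with the median of all genes in each GC bin as lines) and with an offset for GC and length (right). Spearman's rho over the 43 genes is -0.82 on the left and 0.16 on the right.

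An offset that removes each library's trend with GC content and transcript length was therefore fitted with the longest transcript of each gene, and again with its principal transcript, the second of these added after the data were seen. With the first, 5 of the 43 genes rose and 29 fell, against 32.3% and 31.1% of all genes. With the second, 10 rose and 26 fell, against 30.8% and 32.0% of all genes. Called the same way as fitted and with both offsets were 4 genes that rose, against 17.3% of all genes, and 17 that fell, against 16.3%. The 4 were PSMA1, PSMD10, PSMG1 and PSMG2. The 17 were PSMA5, the beta genes PSMB2 to PSMB7, PSMC4, PSMC5, PSMD2, PSMD3, PSMD4, PSMD8, PSMD9, PSMD11, PSME1 and PSMF1.

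Of the 7 beta genes tested, 6 fell in all 3 fits, against 16.3% of all genes. PSMB1 had 0.07 as fitted, -1.24 with the first offset and 0.20 with the second. As fitted it did not pass, and without the first siPIR library it had 0.22. PSMB6 had 7.68 and 10.4 CPM in siPIR libraries, against 75.3 and 74.4 in untreated libraries. Its log2 fold change was -3.05 (SE 0.135, edgeR adjusted p = 1.89e-10) as fitted, and -1.20 and -1.25 with the offsets. PSMB3 had 11.4 and 15.8 in siPIR libraries, against 88.1 and 92.6 in untreated libraries, with -2.73 (SE 0.137, edgeR adjusted p = 5.41e-10) as fitted and -1.16 and -1.32 with the offsets. PSMB5 had 28.1 and 32.4 in siPIR libraries, against 85.9 and 84.8 in untreated libraries (-1.50 as fitted, -0.40 and -0.63 with the offsets), and PSMB7 had 42.3 and 49.4, against 103 and 108 (-1.20 as fitted, -0.58 and -0.74). In each of these 4 genes the siPIR libraries lay below the untreated ones. They also did in PSMC1 and PSME3, which did not pass, and the share over all genes was not counted.

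The alpha ring was divided. PSMA1 had 86.2 and 68.0 CPM in siPIR libraries, against 16.8 and 17.6 in untreated libraries, or 2.16 on the log2 scale (SE 0.122, edgeR adjusted p = 1.59e-09), and 1.94 and 1.61 with the offsets, on a gene with shared exons. PSMA4 had 410 and 391 in siPIR libraries, against 162 and 180 in untreated libraries (1.23, SE 0.101, edgeR adjusted p = 6.82e-08), but 0.07 and -0.02 with the offsets, neither past the threshold. PSMA7 had 53.0 and 47.8 in siPIR libraries, against 140 and 143 in untreated libraries (-1.49, SE 0.101, edgeR adjusted p = 1.01e-08), yet 0.65 with the first offset and -0.24 with the second. PSMA5 had 84.7 and 84.8 in siPIR libraries, against 96.8 and 104 in untreated libraries (-0.24, SE 0.0975, edgeR adjusted p = 0.0331), and -2.14 and -2.25 with the offsets. As fitted it did not pass without either SP2509 library (0.0502 and 0.0741) or either untreated library (0.0668 and 0.173), which share the estimate of spread. PSMA6 had 0.37 as fitted (adjusted p = 0.0204), -1.46 and -0.25 with the offsets, and did not pass without either untreated library (0.139 and 0.0729). PSMA2 and PSMA3 had 1.70 and 1.07 as fitted, 0.28 and -0.76 with the first offset, and 0.17 and -0.22 with the second.

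Among the ATPases, PSMC6 had 189 and 165 CPM in siPIR libraries, against 49.4 and 52.0 in untreated libraries (1.80, SE 0.11, edgeR adjusted p = 3.38e-09), and 0.13 and -0.29 with the offsets. PSMC3 had 18.1 and 18.0 in siPIR libraries, against 96.2 and 97.2 in untreated libraries (-2.42, SE 0.105, edgeR adjusted p = 1.66e-10), and -0.13 and -0.37 with the offsets. PSMC4 had 14.5 and 16.8 in siPIR libraries, against 72.9 and 74.2 in untreated libraries (-2.23, SE 0.109, edgeR adjusted p = 4.28e-10), and -0.33 and -0.49 with the offsets. PSMC4 alone of these 3 was called in 1 direction in all 3 fits, as was PSMC5 (-1.41, -1.45 and -0.57). PSMC1 and PSMC2 had -0.16 and -0.06 as fitted and did not pass, and PSMC2 had -1.72 and -1.84 with the offsets. Of the base scaffold, PSMD2 had -2.06, -0.45 and -0.66 and the receptor gene PSMD4 -1.92, -0.51 and -0.75 as fitted and with the offsets, while PSMD1 had 0.20, not past the threshold except without the first siPIR library (0.25, adjusted p = 0.0142), and -0.53 and -0.66.

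In the lid, PSMD3 had 12.2 and 16.8 CPM in siPIR libraries, against 135 and 132 in untreated libraries (-3.21, SE 0.136, edgeR adjusted p = 1.40e-10), and -2.04 and -0.48 with the offsets. PSMD8 had 9.56 and 13.9 in siPIR libraries, against 79.2 and 73.6 in untreated libraries (-2.70, SE 0.145, edgeR adjusted p = 1.01e-09), and -0.78 and -0.33 with the offsets. PSMD12 had 462 and 363 in siPIR libraries, against 132 and 133 in untreated libraries (1.64, SE 0.119, edgeR adjusted p = 2.02e-08), but -0.21 and -0.30 with the offsets. PSMD14 had 0.89 as fitted, and -1.63 and 0.24 with the offsets, the widest gap between the 2 transcripts' offsets in the lid. PSMD11 fell by 0.52 on the log2 scale as fitted and by 0.52 and 0.68 with the offsets. PSMD6, PSMD7 and PSMD13 had 0.87, 0.16 and -0.47 as fitted, -0.88, -0.15 and -0.21 with the first offset, and 0.54, -0.35 and 0.61 with the second. As fitted, PSMD7 passed only without the second siPIR library (0.23, adjusted p = 0.0188).

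The base chaperone PSMD10 had 128 and 124 CPM in siPIR libraries, against 42.2 and 44.6 in untreated libraries (1.54, SE 0.0964, edgeR adjusted p = 4.48e-09), and 0.40 and 0.26 with the offsets. PSMD9 had -1.65, -0.96 and -1.0 as fitted and with the offsets, on 33 and 26 counts in siPIR ones, and PSMD5 had 0.90, -0.40 and -0.50. The core chaperone PSMG2 had 61.5 and 58.4 in siPIR libraries, against 29.9 and 30.1 in untreated libraries (1.0, SE 0.0950, edgeR adjusted p = 3.39e-07), and 2.12 and 1.86 with the offsets. PSMG1, which pairs with PSMG2 in a heterodimer, had 50.2 and 42.7 in siPIR libraries, against 28.6 and 30.1 in untreated libraries (0.66, SE 0.112, edgeR adjusted p = 9.70e-05), and 0.48 and 0.26 with the offsets. PSMG3 had 1.88 and 2.71 in siPIR libraries, against 21.9 and 22.3 in untreated libraries (-3.26, SE 0.161, edgeR adjusted p = 4.68e-10), and -0.16 and -0.36 with the offsets, neither past the threshold. PSMG4, which pairs with PSMG3, had -1.60, -0.49 and 0.06. The siPIR libraries of PSMG1 and PSMG2 lay above the untreated ones in the counts as fitted, as did those of PSMD7, which did not pass.

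Of the activators, PSME4 had 242 and 265 CPM in siPIR libraries, against 93.1 and 92.9 in untreated libraries (1.44, SE 0.0974, edgeR adjusted p = 9.30e-09), but 0.11 and 0.07 with the offsets, neither past the threshold. PSME1 had 21.5 and 28.7 in siPIR libraries, against 79.0 and 79.6 in untreated libraries (-1.66, SE 0.125, edgeR adjusted p = 2.95e-08), and -0.22 and -0.66 with the offsets. PSME2 had 15.8 and 19.5 in siPIR libraries, against 39.6 and 43.6 in untreated libraries (-1.24, SE 0.123, edgeR adjusted p = 5.11e-07), and -0.44 with the first offset but 1.27 with the second. PSME3 had -0.12 as fitted, not past the threshold, and 0.15 and 0.52 with the offsets. PSMF1 had 37.9 and 36.8 in siPIR libraries, against 69.6 and 64.3 in untreated libraries (-0.84, edgeR adjusted p = 2.59e-06), and -0.94 and -1.09 with the offsets. PSMF1 and PSME1 thus fell in all 3 fits.

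**Figure D5:**
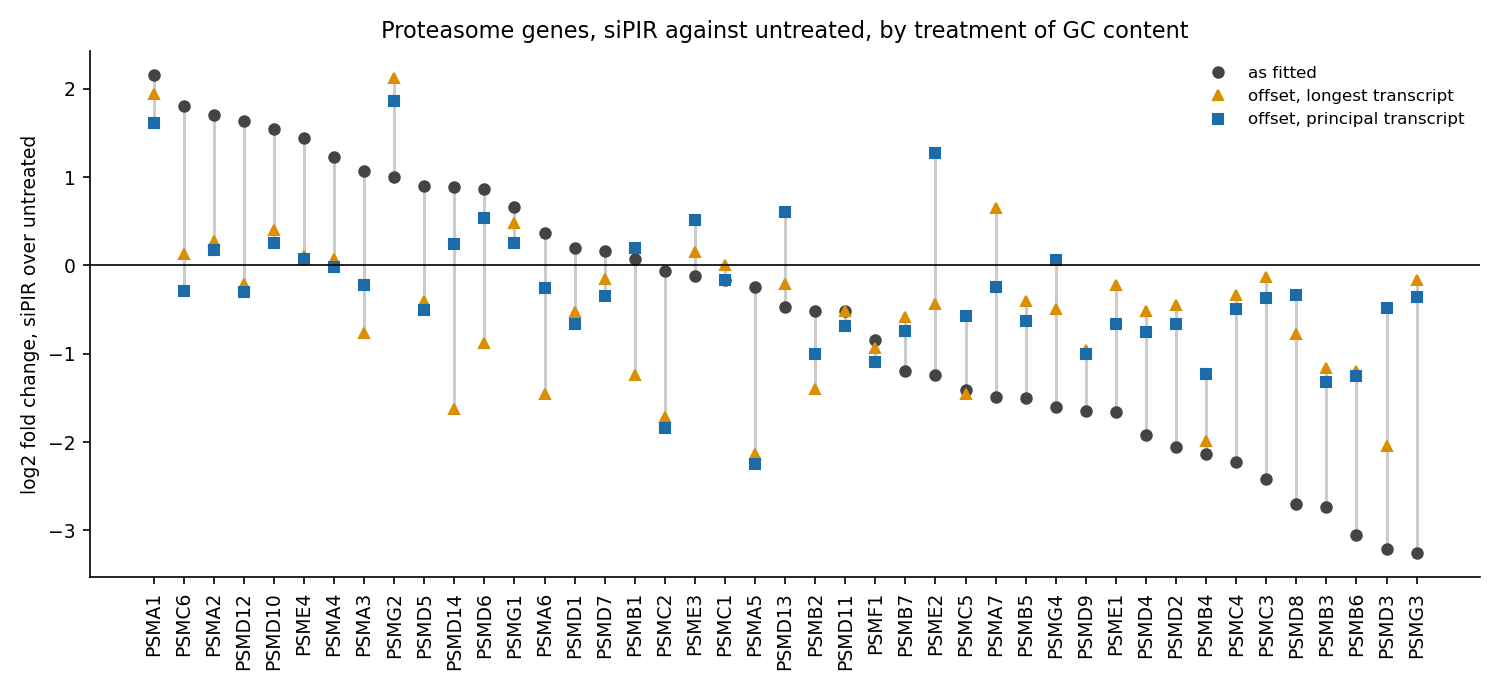
Log2 fold change of siPIR over untreated cells for the 43 genes as fitted (circles) and with the offset for GC and length from the longest (triangles) or principal (squares) transcript, ordered by the value as fitted. PSMA1 stays between 1.61 and 2.16 and PSMB6 between -3.05 and -1.20, while PSMD14 ranges from -1.63 to 0.89.

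SP2509 and siPIR were each set against the same untreated libraries, so the 2 sets of values share them, and the groups were also compared directly. Of the 43 genes, 14 were higher in siPIR than in SP2509 cells and 26 lower, while 38.8% of all genes were higher and 45.5% lower. As fitted and with both offsets, 6 were higher, against 19.5% of all genes, and 18 lower, against 19.3%. The 6 were PSMA1, PSMA2, PSMA4, PSME3, PSMG1 and PSMG2.

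PSMF1, which rose in SP2509 cells and fell in siPIR cells relative to untreated ones, had 37.9 and 36.8 CPM in siPIR libraries, against 115 and 113 in SP2509 libraries. The log2 fold change was -1.61 (SE 0.0986, edgeR adjusted p = 3.69e-09), and -1.64 and -1.77 with the offsets. PSME3 had 112 and 116 in siPIR libraries, against 72.8 and 73.9 in SP2509 libraries (0.64, SE 0.0940, edgeR adjusted p = 2.72e-05), and 0.96 and 1.37 with the offsets. PSME4 differed by 0.10 as fitted, not past the threshold (adjusted p = 0.335), and by -1.12 and -1.17 with the offsets. PSME1 had -0.79 as fitted and 0.73 and 0.28 with the offsets, so that its direction turned.

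Among the core genes, PSMA1 and PSMA4 were higher and PSMB3, PSMB5, PSMB6 and PSMB7 lower in all 3 fits. PSMA1 had 86.2 and 68.0 CPM in siPIR libraries, against 20.2 and 20.6 in SP2509 libraries (1.92, edgeR adjusted p = 5.59e-09), and 1.82 and 1.49 with the offsets. PSMA4 had 410 and 391 in siPIR libraries, against 122 and 114 in SP2509 libraries (1.76, edgeR adjusted p = 2.24e-09), and 0.71 and 0.61 with the offsets. PSMB6 had 7.68 and 10.4 in siPIR libraries, against 87.0 and 81.0 in SP2509 libraries (-3.21, edgeR adjusted p = 1.15e-10), and -1.30 and -1.38 with the offsets. PSMB3 had -2.40, -0.75 and -0.93, PSMB5 -1.81, -0.63 and -0.87, and PSMB7 -1.39, -0.64 and -0.83, as fitted and with the offsets. PSMA5 had -0.28, -2.13 and -2.25, the first of which did not pass without the first SP2509 library (0.126), and PSMA7 -1.67, 0.52 and -0.35.

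In the 19S particle, PSMD3 had 12.2 and 16.8 CPM in siPIR libraries, against 159 and 161 in SP2509 libraries (-3.46, edgeR adjusted p = 6.98e-11), and -2.30 and -0.80 with the offsets. PSMD8 had 9.56 and 13.9, against 112 and 115 in SP2509 libraries (-3.27, edgeR adjusted p = 1.99e-10), and -1.32 and -0.92 with the offsets. PSMC4 had -2.61, -0.68 and -0.86, and PSMC3 -2.35, -0.05 and -0.30, as fitted and with the offsets. PSMD12, PSMC6, PSMD5 and PSMD1, higher in siPIR cells as fitted (1.95, 1.34, 1.13 and 0.59), had 0.18, -0.26, -0.07 and -0.06 with the first offset and 0.07, -0.71, -0.18 and -0.17 with the second. Of the core chaperones, PSMG1 had 0.75, 0.65 and 0.45, PSMG2 0.67, 1.86 and 1.59, and PSMG3 -3.41, -0.34 and -0.54.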

How the data were processed

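Per the labels' protocols, NEBNext Ultra II directional libraries were made from total RNA. FastQC 0.11.8, Trimmomatic 0.32, HISAT2, featureCounts, Subread 1.6.2, edgeR 3.26.4 and the build GRCh38 are named in the submitters' processing notes; no source used here gives strand setting or annotation. The deposited values are estimated counts per gene, of which 9.32 to 12.0% are not whole numbers; they were rounded. Groups came from the labels.

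Genes passing edgeR's expression filter (16503) were scaled by TMM and tested with edgeR 4.0.16 (R 4.3.3; robust quasi-likelihood, 3 residual degrees of freedom, all 6 libraries in one fit) with Benjamini-Hochberg adjustment over all genes and a threshold of 0.05. SE is the log2 fold change divided by the root of the F statistic. CPM are TMM-scaled. The offset used natural splines (5 degrees of freedom each) of GC and log2 length from GENCODE, available for 16345 tested genes. The method was tested on simulated data. Motifs were matched as letters.

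The proteasome genes and lists were chosen with earlier results of these data known. Full statistics were given for up to 2 genes per subgroup and direction, past the threshold, with the largest fold change and an average log2 CPM of at least 3. Other list genes past the threshold are named only for SP2509 against untreated cells, which departs from the rule; for siPIR most lists are counted. Some list genes are not reported here, so no counts are given for the ubiquitin and shuttle lists. DESeq2 1.42.0 and limma 3.58.1 served as alternatives. Intervals on zero counts (3 counts) cover counting error only.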

Additional observations from a re-analysis of the deposited data

How the results depend on the processing

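Between SP2509 and untreated cells, the genes that rose numbered 16 as fitted, 4 under upper-quartile scaling and 2 under total counts alone. Over all genes 33.5%, 25.5% and 20.4% rose in these fits. Those that fell numbered 13 as fitted and 20 under total counts alone, against 35.1% and 51.7% of all genes. Fewer rose and fewer fell without any one of the SP2509 and untreated libraries, and more rose without either siPIR library. Shares over all genes were not counted in those fits. The longest-transcript offset left 5 genes higher in siPIR than in untreated cells (14 as fitted), against 32.3% of all genes (39.3% as fitted). It left 9 higher in siPIR than in SP2509 cells (14 as fitted), against 5779 of 16345 genes (38.8% as fitted). Member counts under DESeq2, limma-voom and the other filters were within 1.5 times. Deviations from group means correlated at -0.0244, -0.0385 and 0.0815 between libraries with the same replicate number. With 2 libraries a group this cannot settle whether libraries were paired. The numbers in the sample descriptions also differ from the replicate numbers, with 10 and 11 in siPIR and 11 and 12 in SP2509 and untreated libraries. With the replicate number as a block 15 rose and 12 fell between SP2509 and untreated cells, with PSMD5 (edgeR adjusted p = 0.0676) and PSMD9 (0.0520) no longer called. In siPIR against untreated cells 14 and 23 rose and fell, and 14 and 26 were higher and lower in siPIR than in SP2509 cells, as without the block. With the number in the sample descriptions as a block, 21 rose and 13 fell. Shares over all genes with either block, or under the other tools and filters, were not counted.

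Summed levels per kilobase with the longest transcript as length were 821, 549 and 820 for the core, 880, 631 and 777 for 19S, and 185, 166 and 200 for activators and chaperones, in SP2509, siPIR and untreated libraries. Scaled to total counts alone they were 523, 275 and 681 for the core, 505, 326 and 592 for 19S, so that 19S in SP2509 libraries lay below untreated ones, against 524 and 469 as fitted, and 122, 91.2 and 170 for activators and chaperones.

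Under total counts alone, 17 proteasome genes changed sign in SP2509 against untreated cells. Among values past the threshold in either fit these were -0.35 for PSMA5, -0.36 for PSMB1, -0.08 for PSMB5, -0.09 for PSMC2, -0.01 for PSMC4, -0.30 for PSMC5, 0.00 for PSMD6, -0.01 for PSMD9, -0.28 for PSMD13, -0.07 for PSMG2, with -0.07 for SEM1 and -0.11 for UBE3C among the list genes. PSMA1, PSMA7, PSMB6, PSMB7, PSMD3, PSMD11 and PSMG3, past it in neither, had -0.14, -0.21, -0.22, -0.20, -0.13, -0.17 and -0.24. Past the threshold in either fit, siPIR against untreated cells had, under the same scaling, -0.25 for PSMA6, -0.55 for PSMB1, -0.41 for PSMD1 and -0.46 for PSMD7.

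With the longest-transcript offset 12 genes changed sign in siPIR against untreated cells, and those past the threshold in either fit had -0.76 for PSMA3, -1.46 for PSMA6, 0.65 for PSMA7, -1.24 for PSMB1, -0.53 for PSMD1, -0.40 for PSMD5, -0.88 for PSMD6, -0.21 for PSMD12 and -1.63 for PSMD14. The principal-transcript offset, chosen after seeing the data, turned it to -0.22 for PSMA3, -0.02 for PSMA4, -0.25 for PSMA6, -0.29 for PSMC6, -0.66 for PSMD1, -0.50 for PSMD5, -0.35 for PSMD7, -0.30 for PSMD12, 0.61 for PSMD13, 1.27 for PSME2, 0.52 for PSME3 and 0.06 for PSMG4. In siPIR against SP2509 cells the first offset gave 0.52 for PSMA7, -0.26 for PSMC6, -0.06 for PSMD1, -0.07 for PSMD5, 0.73 for PSME1, -0.02 for PSMA3, -1.15 for PSMB1, -1.18 for PSMD6, -2.19 for PSMD14, 0.07 for PSME2, -1.12 for PSME4 and 0.00 for PSMG4, and the second -0.71 for PSMC6, -0.17 for PSMD1, -0.18 for PSMD5, 0.28 for PSME1, -0.05 for PSMD10, 0.52 for PSMD13, -0.09 for PSMD14, 1.73 for PSME2, -1.17 for PSME4 and 0.57 for PSMG4. The cause was not tested.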

Other observations

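The COP9 signalosome, a complex built like the 19S lid that removes NEDD8 from cullin ligases, was followed as a list of 10 genes. In SP2509 against untreated cells 4 rose, 4 fell and 2 did not pass, against 33.5% and 35.1% of all genes that rose and fell, with a median log2 fold change of 0.05, which turned to -0.34 under total counts alone. COPS3 had 110 and 111 CPM in SP2509 libraries, against 46.6 and 47.9 in untreated libraries (1.22, edgeR adjusted p = 2.05e-07). COPS4, COPS5, the protease subunit, and COPS2 rose by 0.97, 0.88 and 0.71. GPS1, the first subunit, had 59.9 and 64.1 in SP2509 libraries, against 114 and 113 in untreated libraries (-0.88, edgeR adjusted p = 3.54e-05). COPS7B, COPS6 and COPS9 fell by 0.63, 0.56 and 0.33 on the log2 scale, and COPS9 did not pass without either SP2509 library (0.0898 and 0.0942) or the second untreated library (0.163). COPS7A and COPS8 had -0.14 and 0.23 and did not pass.

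In siPIR against untreated cells, counts of the lists moved with the offset for GC and length. Over all genes, 39.3% rose and 46.9% fell as fitted, 32.3% and 31.1% with the first offset, and 30.8% and 32.0% with the second. Of 13 NRF1 pathway genes, 5 rose and 7 fell as fitted, and 7 rose and 3 fell with either offset. Of 8 maturation and associated factors, 6 rose and 1 fell as fitted, 2 rose and 5 fell with the first offset, and 1 rose and 6 fell with the second. Of 10 COP9 signalosome genes, 5 rose and 5 fell as fitted, 2 rose and 6 fell with the first offset, and 1 rose and 5 fell with the second. The 3 immunoproteasome genes all fell as fitted, and 1, PSMB9, fell with either offset.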
